A study of Mus musculus with 4 samples.

Results

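Interferon-high tumour macrophages were C1q macrophages from MC38 liver metastases in which transcripts of type I interferon-stimulated genes passed a set share of all transcripts. They were chosen by thresholds on UMI counts (unique molecular identifiers, 1 per captured RNA molecule). A barcode was a member if it had at least 300 detected genes, under 15% mitochondrial UMIs, at least 0.5% of its UMIs in C1qa, C1qb and C1qc, and at least 0.1% of its UMIs in Ifit1, Ifit2, Ifit3, Rsad2 and Cmpk2, here called the gate genes. Members also had under 0.8% of UMIs in the class II genes H2-Ab1, H2-Aa and H2-Eb1, at most 1 UMI of Cd3d, Cd3e and Cd3g, at most 2 UMIs of Lyve1 and Cd163, and fewer than 3 UMIs each of Jaml and of Mki67 with Top2a. There were 1066 such cells among 50062 barcodes, of which 42617 passed the quality filter and 27824 were C1q macrophages. The 14242 cells that met every threshold but the interferon gate are called the other macrophages, and together both classes made 15308 cells.

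The study profiled immune cells of liver metastases formed by MC38, a mouse colon carcinoma line, in C57BL/6J mice that the titles of all 4 libraries call WT. In the library names WT and shYap stand for the tumour line, from the genotype field. Tumours had been cut from the surrounding liver, and CD45-positive cells had been enriched on magnetic beads before 10x Genomics 3′ single-cell sequencing. Each diet was paired with each tumour line in 1 library, giving 4 in all: HFD_shYap (high-fat diet, MC38 labelled shYap-MC38, a Yap knockdown), HFD_WT (high-fat diet, labelled WT-MC38), LFD_shYap (low-fat diet, shYap) and LFD_WT (low-fat diet, WT-MC38). For LFD_shYap the sample title gave a low-fat diet and the treatment field a high-fat one, so its diet is uncertain, and the title was used. The labels gave no age, sex or number of mice per library, no duration of the diets and no statement on whether shYap was 1 clone. Each diet and line combination therefore had n = 1, so p-values rest on variation among 4 libraries, which may be technical, and on a spread pooled over genes.

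Type I interferons are secreted by cells that sense viral or misplaced nucleic acid. They bind the receptor pair Ifnar1 and Ifnar2, which activates the kinases Jak1 and Tyk2 and a complex of transcription factors that contains Irf9, and this complex binds interferon-stimulated response elements in the promoters of many genes. Some of these genes, the Ifit genes and Cxcl10 among them, can also be switched on directly by Irf3 in the sensing cell before any interferon is received. Macrophages in this state are a recurrent subset of tumour macrophages and are known for presenting antigen on class I molecules and for chemokines that draw T cells.

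The libraries held 106268471 to 144936859 UMIs. HFD_shYap stood apart, because its cells were a mixture of cells with Xist UMIs and cells with Y-linked UMIs, and its members carried 223 Xist UMIs, against 0 UMIs in the members of each other library. Between 33 and 63 barcodes were shared by each pair of libraries, and no member barcode was shared. Among barcodes with the highest simulated-doublet scores were 13, 25, 13 and 39 members of HFD_shYap, HFD_WT, LFD_shYap and LFD_WT, or 8.55%, 12.6%, 6.22% and 7.69% of members. Over members and other macrophages together the shares were 4.81%, 11.4%, 7.57% and 11.7% in the same libraries. Yap1, the knocked-down gene, had 0 UMIs in members of both shYap libraries, 0 UMIs in members of HFD_WT and 3 UMIs in members of LFD_WT, so macrophages did not check the knockdown. In fibroblast-like barcodes without Ptprc, which may hold tumour cells and host fibroblasts, Yap1 was not lower in the libraries labelled shYap, at 36.7 and 23.9 CPM (UMIs of the gene scaled to a common total of UMIs) in HFD_shYap and LFD_shYap, against 19.6 and 22.7 CPM in HFD_WT and LFD_WT.

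The label was set beside its markers, which do not test it. Ifit3, Ifit2 and Cmpk2 chose the cells and are given as description only, with 404 to 589 CPM of Ifit3 in members, against 11.6 to 24.4 CPM in the other macrophages. The fourth marker, Usp18, was not part of the rule. As a gene of the type I response by which members were picked, it was bound to be high, so its values are description as well. It encodes the protease that removes the ubiquitin-like Isg15 and blunts signalling at the interferon receptor. Usp18 reached 150.1, 159, 98.3 and 209.7 CPM in interferon-high macrophages of HFD_shYap, HFD_WT, LFD_shYap and LFD_WT, against 10.5, 9.59, 7.08 and 14.8 CPM in the other macrophages of the same libraries. Groups did not overlap, although in LFD_shYap only 56 of 209 members, 26.8%, had a Usp18 UMI, against 46.5% to 56.6% of members in the other 3 libraries. The core macrophage genes Csf1r, the receptor for the macrophage growth factor, and Adgre1 (F4/80) were at 565 to 647 CPM in interferon-high macrophages, against 581 to 780.2 CPM in the other macrophages, and at 206 to 317 CPM in interferon-high macrophages, against 247 to 355 CPM in the other macrophages.

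The promoters of 3 of the 5 gate genes and of 3 further genes are shown because the response element of type I interferon is a DNA sequence that can be read from them. The windows hold the 250 bases before the RefSeq start of each gene (GRCm38.p6, 5′ to 3′ on the gene's strand). Capitals mark GAAA, any 2 bases and GAAA again, the core of the interferon-stimulated response element, searched on both strands, so that it also appears as TTTC, any 2 bases and TTTC. Ifit3 (chr19:34583279-34583528, + strand) held 2 matches, starting 156 and 122 bases before the start. Rsad2, which encodes the antiviral enzyme viperin, held 1 match at 120 bases (chr12:26456453-26456702, - strand). Its neighbour Cmpk2, a nucleotide kinase gene read in the opposite direction, held none in the window (chr12:26468965-26469214, + strand). Isg15 (chr4:156200819-156201068, - strand) held 3 overlapping matches at 78, 72 and 66 bases. In Cxcl10, the gene of a chemokine for T cells, the match lay at 213 bases (chr5:92348890-92349139, - strand). Ifnb1, the gene of interferon-beta, held no match of these letters (chr4:88522795-88523044, - strand). Of the windows searched and not printed, that of the gate gene Ifit1 held 2 matches, at 104 and 85 bases, and those of Ifit2, Oasl1 and Tnfsf10 held none.
Ifit3: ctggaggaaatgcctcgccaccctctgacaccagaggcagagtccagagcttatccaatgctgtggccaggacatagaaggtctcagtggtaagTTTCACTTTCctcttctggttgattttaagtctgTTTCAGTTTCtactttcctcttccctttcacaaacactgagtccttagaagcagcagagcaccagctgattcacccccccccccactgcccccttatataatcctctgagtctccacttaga
Rsad2: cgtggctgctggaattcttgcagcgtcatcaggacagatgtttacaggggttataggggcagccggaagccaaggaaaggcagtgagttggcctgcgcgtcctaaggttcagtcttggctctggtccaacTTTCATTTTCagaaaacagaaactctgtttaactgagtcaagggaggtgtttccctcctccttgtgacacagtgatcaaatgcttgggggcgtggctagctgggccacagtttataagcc
Cmpk2: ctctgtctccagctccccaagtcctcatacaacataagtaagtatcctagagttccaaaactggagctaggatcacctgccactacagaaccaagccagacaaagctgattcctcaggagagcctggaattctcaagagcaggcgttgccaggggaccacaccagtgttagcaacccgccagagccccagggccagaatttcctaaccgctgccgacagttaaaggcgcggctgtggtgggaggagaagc
Isg15: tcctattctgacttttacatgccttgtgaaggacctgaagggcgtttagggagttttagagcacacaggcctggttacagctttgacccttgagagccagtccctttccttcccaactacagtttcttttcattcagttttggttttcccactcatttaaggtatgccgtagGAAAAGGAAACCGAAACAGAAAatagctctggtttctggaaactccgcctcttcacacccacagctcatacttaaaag
Cxcl10: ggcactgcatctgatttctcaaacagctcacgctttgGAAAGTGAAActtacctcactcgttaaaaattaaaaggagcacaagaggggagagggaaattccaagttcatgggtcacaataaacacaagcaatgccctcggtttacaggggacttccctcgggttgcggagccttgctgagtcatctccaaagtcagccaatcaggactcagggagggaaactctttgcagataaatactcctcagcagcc
Ifnb1: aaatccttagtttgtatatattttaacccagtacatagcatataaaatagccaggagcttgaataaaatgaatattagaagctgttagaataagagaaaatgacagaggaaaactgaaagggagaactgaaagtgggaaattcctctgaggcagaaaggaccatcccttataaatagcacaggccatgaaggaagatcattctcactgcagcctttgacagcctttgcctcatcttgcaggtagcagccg

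Across windows that also took in the 50 bases after the start, the motif was present in 3.92% of the 20242 measured genes that had a window. It was in 93 of 591 genes that were higher in interferon-high macrophages, 15.7%, and in 3 of 148 genes that were lower, 2.03%. By size of the difference, the share was 7.8% at a log2 fold change up to 1, 19.9% between 1 and 2, and 40.5% above 2. A match is a description of letters and not a shown binding site. Members were picked by gate genes of the type I response, so the higher genes were bound to include others of that response. The shares are therefore description and no separate evidence for it.

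Interferon-high cells made up 5.99% of the rule's C1q macrophages in HFD_shYap (152 of 2539, exact 95% interval 5.10% to 6.98%), 5.82% in HFD_WT (198 of 3400, 5.06% to 6.66%), 5.84% in LFD_shYap (209 of 3580, 5.09% to 6.66%) and 8.76% in LFD_WT (507 of 5789, 8.04% to 9.52%). Only LFD_WT stood above the others, and its interval did not overlap theirs. These intervals cover counting error alone, and with 1 library per combination no test was made. Depth touched this measure, since members had a median of 8756 UMIs in HFD_shYap, 5931 in HFD_WT, 5853 in LFD_shYap and 4602 in LFD_WT, and a shallow cell can pass on a single UMI. In LFD_WT 164 members, 32.3%, passed on fewer than 3 gate UMIs, against 24.3%, 27.8% and 23% in HFD_shYap, HFD_WT and LFD_shYap. With at least 3 gate UMIs required, the shares were 4.53% (3.75% to 5.41%) in HFD_shYap, 4.21% (3.56% to 4.94%) in HFD_WT, 4.50% (3.84% to 5.23%) in LFD_shYap and 5.93% (5.33% to 6.56%) in LFD_WT, whose interval then overlapped that of HFD_shYap. Cells were also thinned to 3000 UMIs for the gate, and cells with fewer UMIs were dropped. This left 2134 of 2539 cells in HFD_shYap, 2434 of 3400 in HFD_WT, 2691 of 3580 in LFD_shYap and 3502 of 5789 in LFD_WT. Shares were then 5.67%, 5.59%, 5.76% and 10.0%, so LFD_WT was above the rest at matched depth too, among the cells kept.

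**Figure D1:**
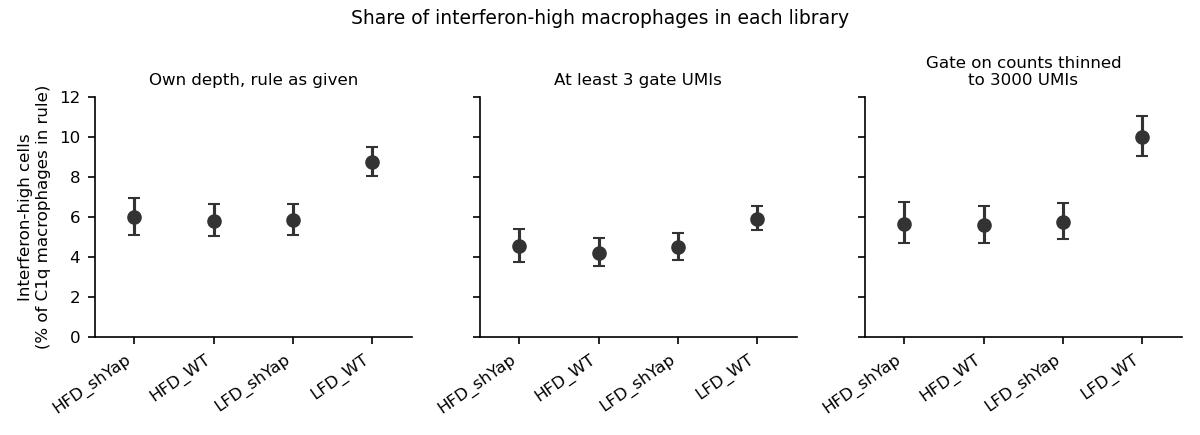
Share of interferon-high cells among C1q macrophages of the rule (y axis, percent, from 0) in each of the 4 libraries, as the rule stands, with at least 3 gate UMIs, and with the gate read on counts thinned to 3000 UMIs. Cells under 3000 UMIs are left out of the thinned panel. Points are shares and bars exact 95% binomial intervals; LFD_WT is highest in each panel, at 8.76%, 5.93% and 10.0%.

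Within HFD_shYap the share was 3.1% (1.85% to 4.85%) among the 581 cells with Xist UMIs alone and 5.65% (4.40% to 7.13%) among the 1168 cells with Y-linked UMIs alone. It was 3.90% (1.44% to 8.29%) among 154 cells with both. The 636 cells with neither, at a median of 4531 UMIs, had 9.75% (7.56% to 12.3%) and held 62 of the 152 members. On thinned counts the values for Xist alone and Y-linked alone were 3.04% and 6.26%, with intervals of 1.75% to 4.88% and 4.90% to 7.86%. Those for both and neither were 5.26% and 7.93%. Cells of 1 library are not replicates, and these intervals cover counting error alone. The source of the 2 kinds of cells is not given in the labels.

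Gate strength varied over more than an order of magnitude within each library. The median member had 0.176% of its UMIs in the gate genes in HFD_shYap, 0.173% in HFD_WT, 0.186% in LFD_shYap and 0.178% in LFD_WT, and the highest members reached 2.38%, 1.82%, 3.08% and 2.44%. Just inside the threshold, at 0.1% to 0.11%, lay 15, 13, 15 and 57 cells of HFD_shYap, HFD_WT, LFD_shYap and LFD_WT, and just outside it, at 0.09% to 0.1%, lay 8, 29, 11 and 54 cells. Usp18 summed to 77.1, 99.9, 39.4 and 74.4 CPM just inside, and to 102, 80.5, 14.5 and 66.0 CPM just outside. Cells thus lay close to the threshold on both sides, but the sides differed in depth. In LFD_WT the medians were 1 gate UMI and 984 UMIs inside, against 3 gate UMIs and 3162.5 UMIs outside. In HFD_WT they were 10 gate UMIs and 9099 UMIs inside, against 2 gate UMIs and 2194 UMIs outside. HFD_shYap (11123 and 10763 UMIs) and LFD_shYap (8838 and 7005 UMIs) were closer. The Usp18 sums therefore do not compare cells of like depth in every library.

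UMIs were summed per library and class to compare interferon-high with other macrophages, with the library as a block, so that each library supplied its own pair. A gene is said to be called when its Benjamini-Hochberg adjusted p from edgeR's quasi-likelihood test was under 0.05, and rule genes were left out. Of 12742 genes, 742 were higher in interferon-high macrophages (5.82%) and 216 were lower (1.7%), 958 in all (7.52%), with an all-gene median log2 fold change of -0.04. Members were picked by 5 genes of the type I response, so the rest of that response was bound to be high in them, and its genes are given as description. The classes were split on the libraries that are compared. The test leaves 3 residual degrees of freedom and borrows a spread from all genes, weighted as 18.1 more. Adjusted p-values thus rest largely on that shared spread and do not measure how evenly a difference recurred over 4 libraries.

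Of 38 tested genes from a list of other type I interferon-stimulated genes, 38 were higher, with a median log2 fold change of 2.34. Isg15, the ubiquitin-like modifier, was among the most abundant, with 1158, 1591, 1489 and 1981 CPM in interferon-high macrophages of HFD_shYap, HFD_WT, LFD_shYap and LFD_WT, against 109, 145, 117 and 246 CPM in the other macrophages of the same libraries. Irf7, the factor that amplifies interferon genes, had 420.2 to 630.2 CPM in interferon-high macrophages, against 93.3 to 139 CPM in the other macrophages. The smallest difference of the list was that of Irf9, and no library overlapped between classes for Isg15 or Irf7.

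Genes known best as targets of interferon-gamma were higher as well, 17 of 18 tested, with a median of 1.70. They included Gbp5 (log2 fold change 2.64, SE 0.14, adjusted p = 4.31e-12), Iigp1 (2.41) and Igtp (2.34), GTPases that attack the vacuoles of intracellular pathogens. Nos2, the inducible nitric oxide synthase, was at 1.5 to 34.8 CPM in interferon-high macrophages, against 0.932 to 13.3 CPM in the other macrophages. Most of these genes also respond to type I interferon. The exception was Ciita, the master activator of class II genes, at 2.83 to 4.11 CPM in interferon-high macrophages, against 2.35 to 4.81 CPM in the other macrophages (log2 fold change -0.12, adjusted p = 0.909). Ifng itself had 24 UMIs in members, 23 of them from 1 cell of LFD_shYap.

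The 10 highest genes outside the rule and the type I list, by log2 fold change among genes at 50 CPM or more, were Cxcl10, Ifi206, Phf11a, Slfn9, Gbp5, Ddx60, Nt5c3, Samd9l, Iigp1 and Igtp, and Gbp5, Iigp1 and Igtp also stand in the interferon-gamma list. Cxcl10 led them with 585, 1016, 753 and 1128 CPM in interferon-high macrophages of HFD_shYap, HFD_WT, LFD_shYap and LFD_WT, against 39, 61.9, 31.3 and 54.3 CPM in the other macrophages of the same libraries (log2 fold change 4.25, SE 0.10, adjusted p = 2.67e-18). Every interferon-high sum lay above every other sum, and LFD_WT and HFD_WT had the highest member values. The type I list was not complete, and genes outside it can belong to the same response, as Cxcl10 does. The rise of such genes follows from the gate. They are description as well, here and in the lists below. Ifi206, a nucleic acid-binding family member, had 93.8 to 152 CPM in interferon-high macrophages, against 11.5 to 17.7 CPM in the other macrophages, and Samd9l, which restricts translation in virus-infected cells, 133 to 167 CPM in interferon-high macrophages, against 24.5 to 35.5 CPM in the other macrophages.

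**Figure D2:**
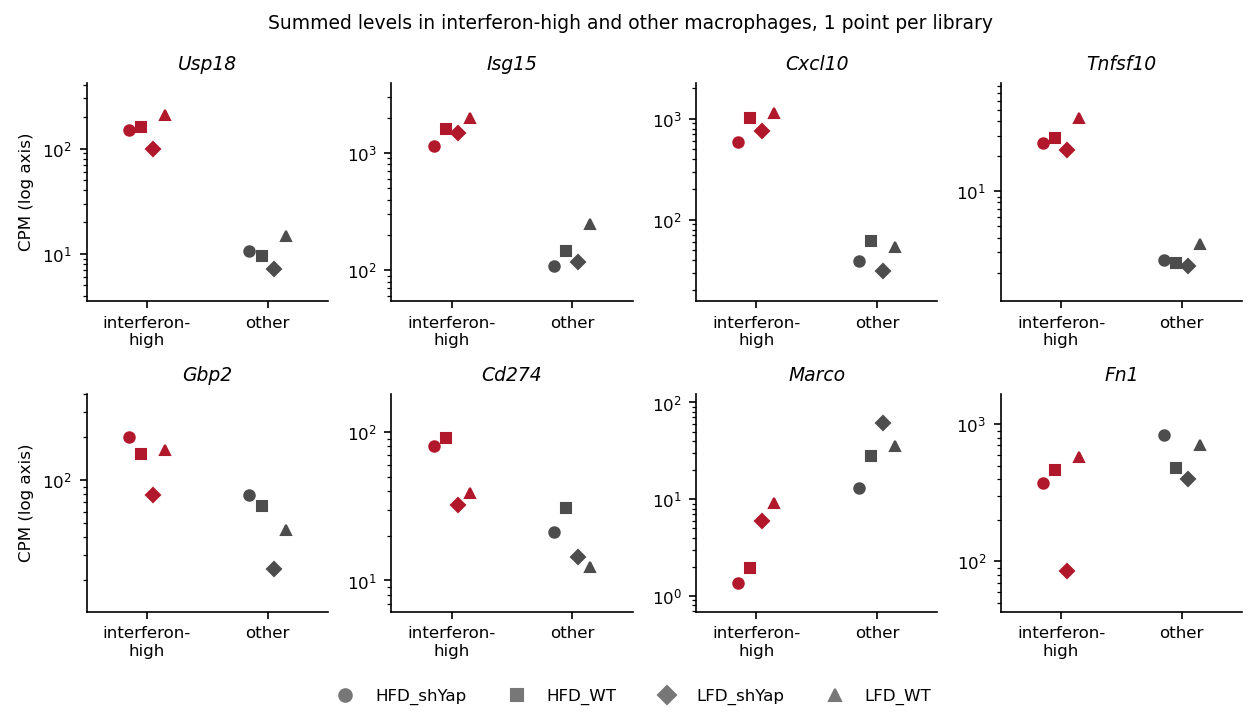
Summed level (CPM, log axis) of 8 genes in interferon-high (red, left) and other macrophages (grey, right), 1 point per library with a marker for each. Usp18, Isg15, Cxcl10 and Tnfsf10 do not overlap between classes, Marco is lower in interferon-high macrophages of every library, and Fn1 falls furthest in LFD_shYap.

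Among sensors of nucleic acid, 6 of 14 tested genes were higher and 0 lower. Tlr3, the endosomal receptor for double-stranded RNA, had 63.1, 34.8, 31.5 and 65.7 CPM in interferon-high macrophages of HFD_shYap, HFD_WT, LFD_shYap and LFD_WT, against 12.4, 10.9, 10.4 and 12.8 CPM in the other macrophages of the same libraries (log2 fold change 2.09, SE 0.14, adjusted p = 1.55e-10). Tlr9, for CpG DNA, rose by a log2 fold change of 1.59, although its call was lost in 5 of 18 alternative settings, thinned counts among them. Cgas, the cytosolic DNA sensor, rose by 1.32, and Adar, which edits double-stranded RNA, by 1.18. Tmem173 (STING), the adaptor downstream of Cgas, was not called, at 43.5 to 88.6 CPM in interferon-high macrophages, against 48.8 to 68.4 CPM in the other macrophages. Receptor genes moved little. Ifnar1 and Ifnar2 had log2 fold changes of -0.13 and 0.12 with adjusted p of 0.503 and 0.444, while Jak2 (0.84) and the macrophage factor Irf8 (0.42) were higher and Ifngr1 (-0.42), a chain of the interferon-gamma receptor, was lower.

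In the class I antigen presentation list 15 of 16 genes were higher, with a median of 0.55. Nlrc5, the activator of class I genes, rose by 1.29 and Tap1, the peptide transporter, by 1.27, with Tap1 at 86.3 to 196 CPM in interferon-high macrophages, against 39.7 to 90.1 CPM in the other macrophages. B2m, the shared light chain and the most abundant of these, rose by 0.35 (SE 0.04, adjusted p = 2.17e-06). Class II genes outside the rule were 0 higher and 2 lower of 7, H2-DMb1 (-0.32) and the invariant chain Cd74 (-0.20). The rule itself capped class II, and the direction of Cd74 turned to 0.11 on counts thinned to 3000 UMIs.

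Chemokines were 7 higher and 2 lower of 15. Ccl4, a chemokine that attracts T cells and monocytes, had 620.4, 1389.7, 4266 and 1565 CPM in interferon-high macrophages of HFD_shYap, HFD_WT, LFD_shYap and LFD_WT, against 323, 295, 563 and 817 CPM in the other macrophages of the same libraries (log2 fold change 1.79, SE 0.20, adjusted p = 1.01e-06). Its member value in LFD_shYap was the highest of all. Ccl12, a monocyte chemokine of mice, rose by 1.48 and Ccl5 by 1.46, and Ccl3, Ccl7 and Ccl2 were also called, whereas the neutrophil chemokine Cxcl1 fell by 0.61 on the log2 scale. Inflammatory cytokines were 7 higher and 0 lower of 13. Tnfsf10 (TRAIL), a death ligand, had 26, 28.3, 22.5 and 42.4 CPM in interferon-high macrophages of HFD_shYap, HFD_WT, LFD_shYap and LFD_WT, against 2.55, 2.43, 2.27 and 3.54 CPM in the other macrophages of the same libraries (log2 fold change 3.49, SE 0.17, adjusted p = 4.37e-13). Il15, which sustains NK and CD8 T cells, had 21.8 to 42.1 CPM in interferon-high macrophages, against 7.57 to 9.99 CPM in the other macrophages, and its presenting chain Il15ra rose by 1.15. By contrast the inflammasome product Il1b was not called, at 215 to 635 CPM in interferon-high macrophages, against 279 to 573 CPM in the other macrophages, nor was Il10, at 14.8 to 22.5 CPM in interferon-high macrophages, against 12.8 to 20.4 CPM in the other macrophages.

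Of 8 checkpoint and costimulatory ligands, 3 were higher and 1 lower. Cd274 (PD-L1) had 80.2, 90.2, 32.3 and 38.7 CPM in interferon-high macrophages of HFD_shYap, HFD_WT, LFD_shYap and LFD_WT, against 21.3, 30.8, 14.4 and 12.3 CPM in the other macrophages of the same libraries (log2 fold change 1.63, SE 0.12, adjusted p = 5.36e-10). Within every library the interferon-high sum was the higher one, while members of both LFD libraries were close to the other macrophages of HFD_WT. Cd40, a costimulatory receptor, rose by 1.92 and Lgals9, a ligand of Tim-3, by 0.98. Vsir (VISTA) fell by 0.24 on the log2 scale and kept its call in 3 of 18 alternative settings.

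**Figure D3:**
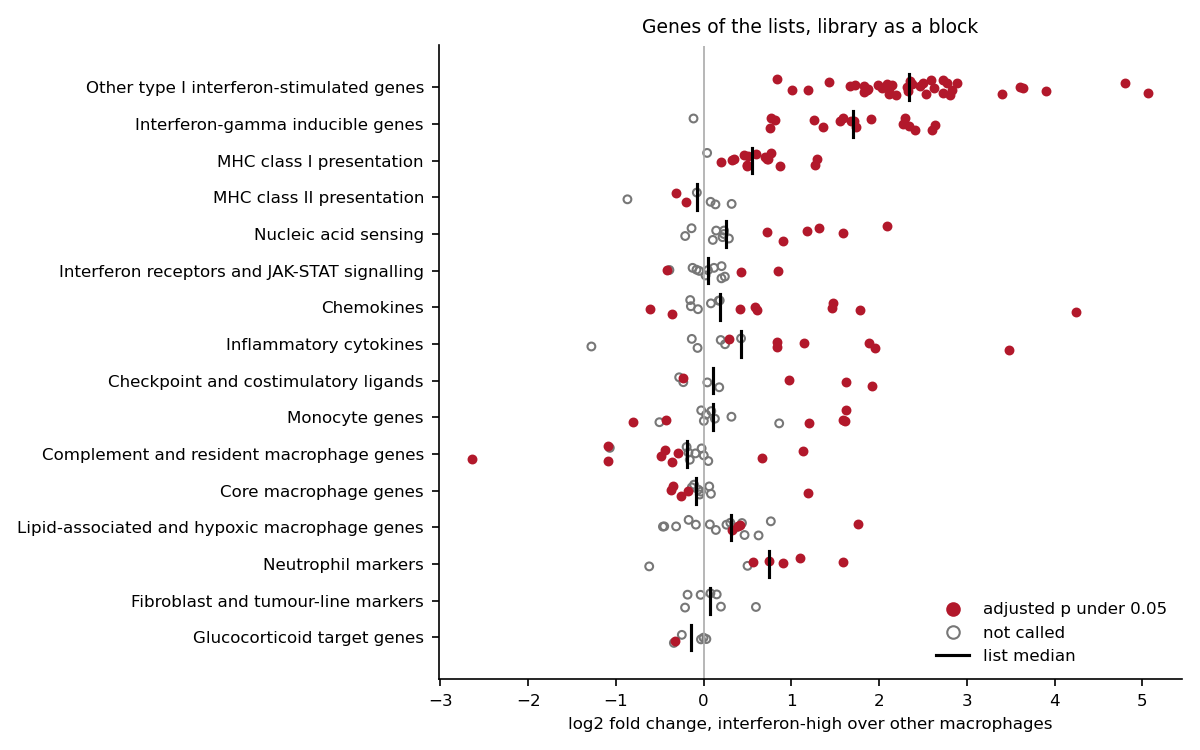
Log2 fold change of interferon-high over other macrophages (x axis) for each tested gene of 16 lists (rows), with called genes filled, uncalled genes open and the list median as a bar. Type I, interferon-gamma and class I lists lie right of 0, at medians of 2.34, 1.70 and 0.55. Neutrophil markers have a median of 0.75, inflammatory cytokines 0.43 and lipid-associated and hypoxic genes 0.31. Medians of the remaining lists lie between -0.19 and 0.26.

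Genes of recruited monocytes and of resident macrophages moved in part. Among monocyte genes Ly6a (1.62), Plac8 (1.61) and Ly6c2 (1.59) were higher, and Fn1 and F13a1 lower. Ly6c2, the classical monocyte antigen, was at 53.5, 109, 422 and 120.4 CPM in interferon-high macrophages of HFD_shYap, HFD_WT, LFD_shYap and LFD_WT, against 26.2, 43.7, 100.3 and 41.4 CPM in the other macrophages of the same libraries. Ly6a and Plac8 are also inducible by interferon. Fn1 (fibronectin) was at 371, 460.4, 85.5 and 576 CPM in interferon-high macrophages of HFD_shYap, HFD_WT, LFD_shYap and LFD_WT, against 836, 479, 397 and 704 CPM in the other macrophages of the same libraries (log2 fold change -0.80, SE 0.19, adjusted p = 0.00646), with the largest differences in LFD_shYap and HFD_shYap, and the call was lost without HFD_shYap (log2 fold change -0.67).

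Resident and complement genes were 2 higher and 7 lower of 17. Marco, a scavenger receptor of liver and other tissue macrophages, had 1.37, 1.93, 6.0 and 9.12 CPM in interferon-high macrophages of HFD_shYap, HFD_WT, LFD_shYap and LFD_WT, against 12.9, 27.9, 61.7 and 35.6 CPM in the other macrophages of the same libraries (log2 fold change -2.64, SE 0.22, adjusted p = 5.38e-09). In each library the interferon-high sum was several-fold lower. The member values of HFD_shYap and HFD_WT rest on few UMIs, since 3 counts there are 2.06 and 1.93 CPM. The size of the difference in those libraries is therefore uncertain. Vsig4, a complement receptor of Kupffer cells, fell by 1.09 on the log2 scale but was higher in members of HFD_shYap, and Cd5l turned to 0.72 when the gate was read on thinned counts. The complement factors Cfb and C3 were higher, Cfb at 148 to 190.2 CPM in interferon-high macrophages, against 65.7 to 92.3 CPM in the other macrophages. Fcgr1, the high-affinity IgG receptor and itself interferon-inducible, rose by 1.19 (adjusted p = 4.55e-12), while Lyz2, Cd14, Itgam and Apoe fell by 0.37, 0.35, 0.26 and 0.18 on the log2 scale.

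The 10 lowest genes by the same rule were Fn1, Saa3, Ltc4s, Cxcl1, Kcnq1ot1, Mmp19, Gcsh, Lifr, Ptgs1 and Mxd4, with log2 fold changes between -0.80 and -0.50. Ltc4s, leukotriene C4 synthase, had 57.6, 60.5, 133 and 175 CPM in interferon-high macrophages of HFD_shYap, HFD_WT, LFD_shYap and LFD_WT, against 126, 93.5, 199.6 and 248 CPM in the other macrophages of the same libraries. Within each library members were lower, though the ranges of the classes overlapped across libraries.

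Markers of other cell types were summed in each class. The 8 T cell markers, which include Cd3d, Cd3e and Cd3g, capped by the rule in both classes, summed to 13.7, 30.3, 21.8 and 17.3 CPM in members of HFD_shYap, HFD_WT, LFD_shYap and LFD_WT, against 14, 24.5, 16.7 and 20.8 CPM in the other macrophages. Siglech, the defining marker of plasmacytoid dendritic cells, the classical interferon producers, was at 0 in members of HFD_shYap, HFD_WT and LFD_shYap, while Bst2 and Tcf4 of the same list were called higher, Bst2 being itself a type I gene. Neutrophil markers, 7 genes, summed to 396, 1262, 914 and 554 CPM in members of HFD_shYap, HFD_WT, LFD_shYap and LFD_WT, against 84.2, 888, 323 and 643 CPM in the other macrophages, with Ly6g at 0 in members of HFD_shYap, HFD_WT and LFD_WT. Of these markers 5 of 7 were called higher, but S100a8 and S100a9 turned to -0.30 and -0.24 on counts thinned to 3000 UMIs. Their part in the results above was not tested. Hemoglobin genes were lower in members, with 4 of 4 tested erythrocyte markers called, and summed to 19.3 and 22.6 CPM in members of HFD_WT and LFD_WT, against 265 and 574 CPM in their other macrophages.

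Interferon-beta transcripts were found in members of HFD_WT and LFD_shYap. Ifnb1 had 0 UMIs in 152 members of HFD_shYap, 59 UMIs in 6 of 198 members of HFD_WT, 110 UMIs in 28 of 209 members of LFD_shYap and 0 UMIs in 507 members of LFD_WT. These came to 38.0 CPM in HFD_WT (95% Poisson interval 28.9 to 49) and 82.5 CPM in LFD_shYap (67.8 to 99.5). For 0 UMIs the same interval reaches up to 2.53 CPM in HFD_shYap and 1.16 CPM in LFD_WT. LFD_WT, with the highest share of interferon-high cells, thus had no Ifnb1 in them. Among the other macrophages Ifnb1 had 0, 12, 38 and 1 UMIs in HFD_shYap, HFD_WT, LFD_shYap and LFD_WT, and 24 of 3371 cells, 0.712%, carried it in LFD_shYap, against 13.4% of members there. Over all quality-filtered barcodes there were 32, 151, 655 and 2 Ifnb1 UMIs in the 4 libraries, so members of LFD_shYap held a minority of its 655, and 370 were in C1q macrophages with 3 or more Jaml UMIs, which the rule leaves out. Interferon-alpha genes had 14 UMIs in all libraries together, 11 of them in 2 members, of which 1 cell of HFD_WT held 10.

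Members with and without Ifnb1 UMIs were set side by side in HFD_WT and LFD_shYap, a comparison chosen after the values were seen. Cells of a library are not replicates, so it carries no test, and intervals cover counting error alone. In LFD_shYap the 28 Ifnb1 members had a median gate strength of 0.356% of UMIs, against 0.178% in the members without Ifnb1, and greater depth, a median of 7762 UMIs with Ifnb1, against 5119 UMIs without. Gate genes admitted both sets of cells, so their values follow partly from the rule. Ifit1 was at 1879 CPM (95% Poisson interval 1700.5 to 2072) with Ifnb1, against 565 CPM (521 to 610.3) without, and Rsad2 at 1721 CPM with Ifnb1, against 849.9 CPM without. Ifit2 was at 549 CPM with Ifnb1, against 347 CPM without. Ifit3 and Cmpk2 were lower with Ifnb1, Ifit3 at 265 CPM (95% Poisson interval 201 to 344) with Ifnb1, against 450.0 CPM (412 to 491) without and Cmpk2 at 41.9 CPM with Ifnb1, against 91.3 CPM without. Ccl4 reached 9573 CPM with Ifnb1, against 3246 CPM without, and Tnf 335 CPM with Ifnb1, against 87.7 CPM without.

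Yet many genes of the type I list were lower in these cells. Of that list, 27 genes had at least 3 UMIs on both sides in LFD_shYap, and 24 of them were lower with Ifnb1, with a median ratio of 0.193. Any ratio under 1 counted as lower. The ratio was not taken over all genes, so no background share stands beside these counts. Irf7 was at 93 CPM (95% Poisson interval 56.8 to 144) with Ifnb1, against 483 CPM (443 to 526) without. Zbp1, a Z-nucleic acid sensor, was at 23.3 CPM with Ifnb1, against 281 CPM without, and Ms4a4c at 41.9 CPM with Ifnb1, against 657 CPM without. Usp18 had 1 UMI with Ifnb1 and 130 UMIs without. The 3 higher genes were Isg15, Oasl1 and Ifih1, the last encoding the RNA sensor MDA5, at 530.3 CPM with Ifnb1, against 239 CPM without. Other genes differed as well, since Ly6c2 had 0 UMIs with Ifnb1 and 562 without, Ccl12 was at 37.2 CPM with Ifnb1, against 1033 CPM without, and Apoe at 68077 CPM with Ifnb1, against 46883 CPM without.

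The 6 Ifnb1 members of HFD_WT, large cells with a median of 20444 UMIs, showed this in part, with smaller ratios. Ccl4 was at 6437 CPM with Ifnb1, against 955 CPM without, Tnf at 187 CPM with Ifnb1, against 25.9 CPM without and Ifit1 at 1918 CPM with Ifnb1, against 462 CPM without. Irf7 was at 228 CPM with Ifnb1, against 462 CPM without. Here 25 of 33 type I genes were lower with Ifnb1, with a median ratio of 0.702, and Usp18 was not, at 195 CPM with Ifnb1, against 156 CPM without. Again no share over all genes stands beside this count, and some intervals overlapped. Oas1a, for one, was at 40.6 CPM (13.2 to 94.8) with Ifnb1, against 41.3 CPM (31.4 to 53.2) without.

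**Figure D4:**
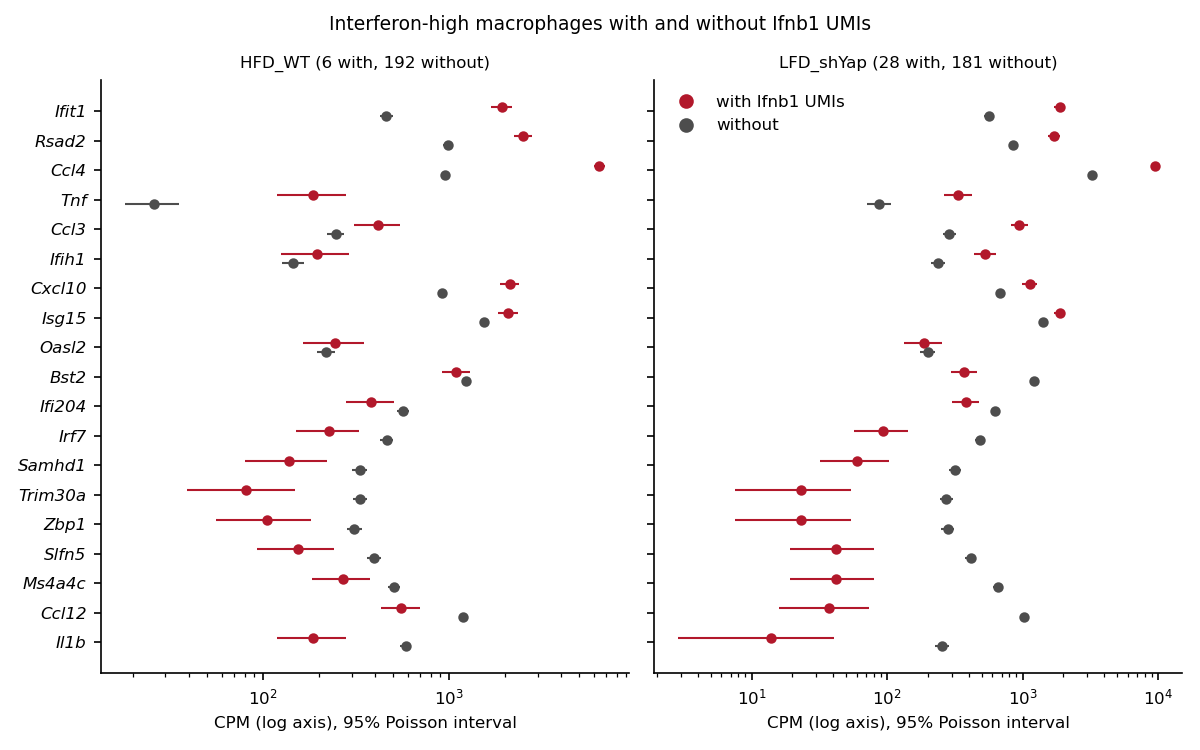
Level of genes (rows; CPM on a log x axis, 95% Poisson intervals) in interferon-high macrophages with (red) and without (grey) Ifnb1 UMIs, in HFD_WT and LFD_shYap. Genes at the top, such as Ifit1 and Ccl4, are higher with Ifnb1, and others are lower, such as Irf7 in LFD_shYap at 93 CPM with Ifnb1 and 483 CPM without.

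Usp18, which the gate did not use, was also read along gate strength. Among the strongest members, at 0.5% or more of UMIs in the gate genes, Usp18 was at 291, 378, 48.5 and 467 CPM in 14, 20, 23 and 68 cells of HFD_shYap, HFD_WT, LFD_shYap and LFD_WT. Members at 0.1% to 0.2% had Usp18 at 111, 121, 68.4 and 120 CPM in the same libraries. In LFD_shYap it was at 162 CPM (127 to 203) in members at 0.2% to 0.5%. The 7 Usp18 UMIs of its 23 members at 0.5% or more give an interval of 19.5 to 99.9 CPM, which overlapped that of 50.7 to 90.1 CPM in its members at 0.1% to 0.2%.

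Diet was compared over both tumour lines within interferon-high macrophages, in an additive model with line that leaves 1 residual degree of freedom. The spread borrowed from all genes was weighted as 22.5 more. Of 8215 genes, 28 were higher in HFD libraries (0.341%) and 25 lower (0.304%), 53 in all (0.645%), against 444 at an unadjusted p under 0.05. All members passed the same interferon gate, so nothing is read from the type I list, of which 0 of 38 genes were called by edgeR, 0 by DESeq2 and 1 had an unadjusted p under 0.05, with a median log2 fold change of -0.11. Genes of lipid-associated and hypoxic macrophages were 8 higher and 0 lower of 18 by edgeR, with a median of 1.13 against -0.01 over all genes, and DESeq2 called 3 of the 18.

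Mmp12, macrophage elastase, had 48.7 and 219 CPM in HFD_shYap and HFD_WT, against 6.75 and 12.3 CPM in LFD_shYap and LFD_WT (log2 fold change 3.76, SE 0.33, adjusted p = 4.77e-07). Members of HFD_WT were far above the rest and those of LFD_shYap lowest, and the other macrophages had 44.2 and 59.7 CPM in HFD_shYap and HFD_WT, against 8.02 and 16.8 CPM in LFD_shYap and LFD_WT. Ero1l and Ndrg1, induced by low oxygen, rose by 1.75 and 2.10, Ero1l at 139 and 166 CPM in HFD_shYap and HFD_WT, against 42 and 44 CPM in LFD_shYap and LFD_WT. Gpnmb, a lysosomal glycoprotein of lipid-laden macrophages, rose by 2.0. Nos2 had 33.6 and 34.8 CPM in HFD_shYap and HFD_WT, against 1.5 and 2.83 CPM in LFD_shYap and LFD_WT (log2 fold change 3.79, SE 0.43, adjusted p = 2.81e-05), and its HFD values did not overlap the LFD ones. Cxcl9, a T cell chemokine best known as an interferon-gamma target, had 189 and 227 CPM in HFD_shYap and HFD_WT, against 60.8 and 71.7 CPM in LFD_shYap and LFD_WT (log2 fold change 1.57, SE 0.24, adjusted p = 0.000788). Ccl5 had 609 and 354 CPM in HFD_shYap and HFD_WT, against 175 and 123 CPM in LFD_shYap and LFD_WT (1.57), and Cd274 80.2 and 90.2 CPM in HFD_shYap and HFD_WT, against 32.3 and 38.7 CPM in LFD_shYap and LFD_WT (1.19, adjusted p = 0.022).

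Lower in HFD members was Id3, an inhibitor of DNA-binding factors, at 26.7 and 17.4 CPM in HFD_shYap and HFD_WT, against 127 and 73.2 CPM in LFD_shYap and LFD_WT (log2 fold change -2.26, SE 0.27, adjusted p = 2.81e-05). Saa3, an acute-phase protein, fell by 1.75 on the log2 scale, Ltc4s by 1.46, Tnf by 1.49 and Cxcl1 by 1.34. Tnf was at 41.8 and 38.6 CPM in HFD_shYap and HFD_WT, against 128 and 88.6 CPM in LFD_shYap and LFD_WT. Col3a1, Col6a1 and Dcn, genes of fibroblasts, were called lower too, and the 9 fibroblast and tumour-line markers summed to 27.4 and 36.7 CPM in HFD_shYap and HFD_WT, against 244 and 84.2 CPM in LFD_shYap and LFD_WT, with Krt18 at 0 in members of all 4 libraries. Their part in the diet differences was not tested. With the diet of LFD_shYap taken from its treatment field, 2 genes were called in place of 53, 0 of them shared. With only the Xist cells of HFD_shYap 0 were called and with only its Y-linked cells 9. Of the genes named here Ero1l kept its call in 10 of 14 alternative settings, Nos2 in 9 of 11, Id3 and Saa3 in 9 of 14, Mmp12 in 8 of 13 and Cxcl9 in 8 of 14. Calls were kept in 7 of 14 settings for Ccl5, Tnf and Ltc4s, in 6 of 14 for Cxcl1, in 5 of 14 for Cd274 and Ndrg1, in 5 of 13 for Gpnmb, in 5 of 11 for Col3a1, and in 4 of 10 for Col6a1 and Dcn.

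**Figure D5:**
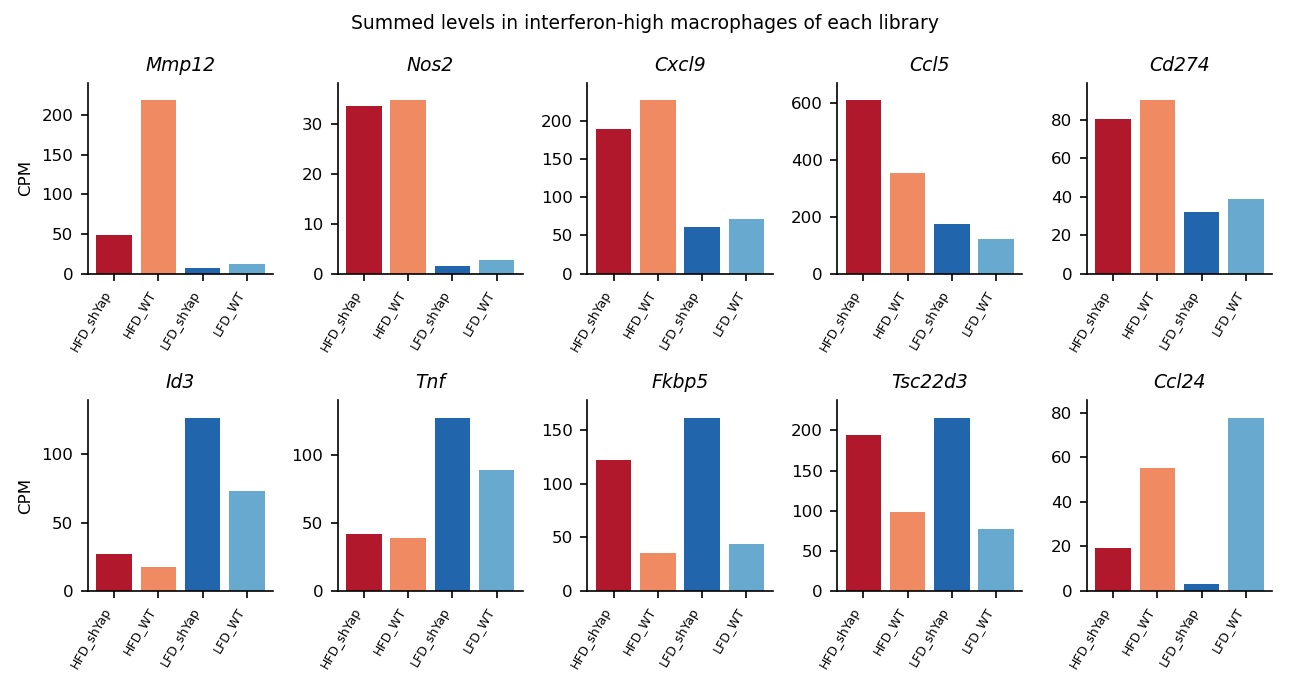
Summed level (CPM, y axis from 0) in interferon-high macrophages of each library, HFD in reds and LFD in blues, for 10 genes named for diet or tumour line; each bar is 1 library, with no replicate. Mmp12, Nos2, Cxcl9, Ccl5 and Cd274 are higher in both HFD libraries, Id3 and Tnf lower, and Fkbp5 and Tsc22d3 are higher and Ccl24 lower in both libraries labelled shYap.

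Tumour line, compared over both diets in the same model, gave 4 genes higher in the libraries labelled shYap (0.0487%) and 3 lower (0.0365%), 7 in all (0.0852%), against 616 at an unadjusted p under 0.05. Of the glucocorticoid targets 3 of 6 were higher by edgeR, with a median of 1.19 against 0.01 over all genes, and DESeq2 called 1 of the 6. Fkbp5, a chaperone of the glucocorticoid receptor, had 122 and 162 CPM in HFD_shYap and LFD_shYap, against 35.4 and 43.7 CPM in HFD_WT and LFD_WT (log2 fold change 1.89, SE 0.24, adjusted p = 0.000411). Tsc22d3 (GILZ), an anti-inflammatory target of the receptor, had 195 and 216 CPM in HFD_shYap and LFD_shYap, against 97.9 and 77.3 CPM in HFD_WT and LFD_WT (log2 fold change 1.28, SE 0.25, adjusted p = 0.0346). Zbtb16 rose by 3.71, from few UMIs, at 9.6 and 18 CPM in HFD_shYap and LFD_shYap, against 1.93 and 0.629 CPM in HFD_WT and LFD_WT. The shYap values lay above the WT values in both diets for all 3. The other macrophages had Fkbp5 at 137 and 179.8 CPM in HFD_shYap and LFD_shYap, against 55.7 and 64.2 CPM in HFD_WT and LFD_WT.

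Saa3 was the other gene higher in shYap members (1.27). Lower were Ccl24, an eosinophil chemokine, at 19.2 and 3.0 CPM in HFD_shYap and LFD_shYap, against 55.4 and 78 CPM in HFD_WT and LFD_WT (log2 fold change -2.63, SE 0.42, adjusted p = 0.00707), Mmp12 (-1.88) and the tetraspanin Cd9 (-1.32). Of the type I list, from which again nothing is read, 0 of 38 genes were called by edgeR, 0 by DESeq2 and 2 had an unadjusted p under 0.05, with a median of -0.20. Fkbp5 kept its call in 10 of 14 alternative settings, Ccl24 in 7 of 14, Cd9 and Saa3 in 6 of 14, Tsc22d3 in 5 of 14, Mmp12 in 5 of 13 and Zbtb16 in 5 of 12, and DESeq2 called 1 gene in place of 7.

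Whether these differences were the same in the other macrophages was tested with class by diet and class by line terms, in which 58 genes (0.455%) and 34 genes (0.267%) were called of 12742. These p-values rest on 1 residual degree of freedom and a spread pooled over all genes, so they overstate certainty for genes that vary more than most. Diet differed between the classes in 35 genes upward (0.275%) and 23 downward (0.181%), with 8 of 18 lipid-associated and hypoxic genes upward by edgeR and 1 of 18 called by DESeq2. Of the genes named for diet in members, Mmp12, Gpnmb, Ero1l and Ccl5 were among those called upward in this term by edgeR. Nos2, Cxcl9, Cd274, Tnf, Cxcl1 and Ndrg1 were not called, so a difference between the classes was not shown for them. Arg1, arginase, had 799 and 1020.0 CPM in HFD_shYap and HFD_WT, against 152 and 436 CPM in LFD_shYap and LFD_WT in interferon-high macrophages and 1013 and 727 CPM in HFD_shYap and HFD_WT, against 489 and 682 CPM in LFD_shYap and LFD_WT in the other macrophages (difference of log2 fold changes 1.22). Lgals3 (galectin-3) had 1817 and 1962 CPM in HFD_shYap and HFD_WT, against 786 and 806 CPM in LFD_shYap and LFD_WT in interferon-high macrophages and 930.3 and 1212 CPM in HFD_shYap and HFD_WT, against 772 and 882 CPM in LFD_shYap and LFD_WT in the others (0.87). For line, 23 genes went upward (0.181%) and 11 downward (0.0863%), with Fn1 (-1.5), Ccl24 (-2.17) and Mmp12 (-1.44) downward. Fn1, Ccl24 and Mmp12 kept their calls in 12, 11 and 9 of 13 alternative settings. Of the glucocorticoid targets 0 of 6 were called in the line term by edgeR, 0 by DESeq2 and 2 had an unadjusted p under 0.05, so a difference between the classes in that group was not shown.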

How the data were processed

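The data were 4 matrices of raw UMI counts per gene and cell barcode, deposited without normalization. Per the file headers they came from Cell Ranger 6.0.0, whereas version 4.0.0 of that program, with STAR 2.5.1 and the mm10 build, stands in the submitters' processing notes. How barcodes were kept before deposit is not stated. Groups came from the sample titles. Members, gene lists and tests were chosen with earlier results of these data known.

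Counts were summed per library and class (1332744 to 3181495 UMIs in members, 26818589 to 33045109 in the other macrophages) and tested with edgeR 4.0.16 in R 4.3.3 (quasi-likelihood test, TMM, filterByExpr, Benjamini-Hochberg adjustment, threshold 0.05), two-sided, with library as a block for the class comparison and additive diet and line within members. The SE is the absolute log2 fold change divided by the square root of F. DESeq2 1.42.0 was an alternative. Scripts were tested on simulated data. Named genes were the listed ones, the 10 highest and 10 lowest called genes with at least 50 CPM and the same direction in 4 libraries, and the 5 smallest p in each direction for other terms, leaving out mitochondrial, ribosomal, immunoglobulin, T cell receptor, hemoglobin, sex-linked and clone-named genes. Some genes the rule names are not reported here. Genes outside this rule in the Ifnb1 and gate-strength comparisons were chosen after their values were seen. Doublets were scored with Scrublet in scanpy 1.11.5; its automatic threshold marked 7, 3107, 1 and 0 barcodes of HFD_shYap, HFD_WT, LFD_shYap and LFD_WT and was not used, and members were not filtered on doublets. Share intervals are Clopper-Pearson and CPM intervals exact Poisson, both 95% and covering counting error only. Promoter sequences and gene starts are RefSeq's, GRCm38.p6, with 20242 of 32285 genes matched by symbol.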

Additional observations from a re-analysis of the deposited data

Results flagged for a closer look

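Differences between interferon-high and other macrophages in their response to diet were called for 58 genes, which is why the class by diet term is listed here. The differences of log2 fold changes were 2.92 for Retnlg, 1.22 for Arg1, 1.26 for Hmox1, 1.70 for Slpi and 0.87 for Lgals3 upward, and -2.14 for Col3a1, -0.33 for Apoe, -0.85 for Klf4, -3.98 for Apod and -1.02 for Ifitm1 downward. Of 13 alternative settings, calls were kept in 13 for Hmox1, 12 for Arg1, Slpi and Lgals3, and 11 for Retnlg. They were kept in 10 for Col3a1 and Klf4, 8 for Ifitm1, and 7 for Apod and Apoe. Retnlg lost its call with top doublet scores removed and with a gate at 0.2%. Apod had 0.686 and 1.29 CPM in HFD_shYap and HFD_WT, against 107 and 2.2 CPM in LFD_shYap and LFD_WT in members, so LFD_shYap alone was high. Hmox1, heme oxygenase, had 631 and 513 CPM in HFD_shYap and HFD_WT, against 229 and 468 CPM in LFD_shYap and LFD_WT in members and 358 and 314 CPM in HFD_shYap and HFD_WT, against 345 and 629 CPM in LFD_shYap and LFD_WT in the other macrophages. In the response to tumour line 34 genes differed between the classes, with differences of 2.08 for S100a9, 2.76 for Retnlg, 1.69 for S100a8, 2.21 for G0s2 and 0.95 for Ccl5 upward, and -1.5 for Fn1, -0.94 for Arg1, -2.17 for Ccl24, -1.44 for Mmp12 and -0.85 for S100a4 downward. Of 13 alternative settings, calls were kept in 13 for G0s2, 12 for Fn1, and 11 for Retnlg, S100a9 and Ccl24. They were kept in 10 for S100a8 and Arg1, 9 for Mmp12 and S100a4, and 8 for Ccl5. Retnlg, S100a8, S100a9 and G0s2 are best known from neutrophils. Summed neutrophil markers were 396 and 914 CPM in members of HFD_shYap and LFD_shYap, against 1262 and 554 CPM in members of HFD_WT and LFD_WT, and 84.2 and 323 CPM, against 888 and 643 CPM, in the other macrophages, and their part in these terms was not tested.

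Xist, by which cells of HFD_shYap were split above, had 223 UMIs in interferon-high macrophages of HFD_shYap and 0 in those of the other libraries.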

How the results depend on the processing

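Of the 958 genes called between interferon-high and other macrophages, counts stayed within 1.5 times in all settings but 2: 589 with the gate read on thinned counts, a setting chosen after seeing the data, and 380 without the replicate block of library. Leaving out a library in turn gave 726 to 865. Thinned to 3000 UMIs, Cd74, Cd5l, S100a9, S100a8 and Mmp9 turned to 0.11, 0.047, -0.24, -0.30 and -0.036, and with the gate on thinned counts Cd5l, S100a9, S100a8 and Mmp9 to 0.72, -0.31, -0.17 and -0.37. The cause was not tested. Shares moved with 3 or more gate UMIs to 4.53%, 4.21%, 4.50% and 5.93% in HFD_shYap, HFD_WT, LFD_shYap and LFD_WT, with a gate at 0.2% to 2.44%, 2.38%, 2.68% and 3.82%, with only Xist cells of HFD_shYap to 3.1%, and in LFD_WT to 10.0% with the gate on thinned counts and 9.54% with all counts thinned.

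Diet calls in members (53) depended on most settings. They were 0 with a gate at 0.2% (235 at an unadjusted p under 0.05), 87 with 3 or more gate UMIs, 6 when thinned, 12 without the class II ceiling, 93 at 500 detected genes, 0 with only Xist cells (265 unadjusted), 9 with only Y-linked cells, 16 with the gate on thinned counts, 9 by DESeq2, 104 with no expression filter, 2 with the treatment field's diet and 6 with diet alone. In the same order, line calls (7) were 0, 34, 2, 1, 53, 3, 0, 13, 1, 47, 0 and 0 with line alone, and 13 without top doublet scores; where 0, unadjusted counts were 344, 446, 239 and 538.

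The class by diet term (58) gave 22 with a gate at 0.2%, 21 thinned, 36 without the class II ceiling, 14 with only Xist cells, 29 with the gate on thinned counts, 4 by DESeq2 and 20 with the treatment field's diet. The class by line term (34) gave 20, 22 and 22 with a gate at 0.2%, thinned and with only Xist cells, and 8 by DESeq2. With the gate on thinned counts Ifitm1 turned to 0.072 in the diet term, and S100a9 and S100a8 to -0.23 and -0.55 in the line term; thinned, S100a8 and Arg1 turned to -0.35 and 0.0498 there. Leaving out a library was not run for these 4 comparisons, since no residual degree of freedom is left.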

Other observations

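The interferon gate was also met in cells that the rule leaves out. On counts thinned to 3000 UMIs, it was passed by 5.68%, 5.35%, 3.76% and 10% of C1q macrophages with high class II in HFD_shYap, HFD_WT, LFD_shYap and LFD_WT. The values were 4.63%, 6.25%, 5.87% and 5.02% of those with Lyve1 and Cd163 over 2 UMIs, 4.53%, 5.38%, 6.21% and 9.83% of cycling ones and 7.16%, 5.91%, 8.44% and 18.3% of those with 3 or more Jaml UMIs. LFD_WT was highest among class II-high, cycling and Jaml cells, the last at 30 of 164 cells, and not among Lyve1 and Cd163 cells. T cells passed at 4.95%, 2.97%, 1.85% and 8.33% of 202, 101, 54 and 24 thinned cells, and fibroblast-like barcodes at 5.77%, 3.43%, 6.33% and 4.09% of 52, 175, 221 and 220.

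Kdr, an endothelial growth factor receptor chosen with its list of 5 endothelial markers, was the 1 called gene of that list between the classes, at 5.25 to 9.12 CPM in interferon-high macrophages, against 0.729 to 1.36 CPM in the other macrophages (log2 fold change 3.08).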
